A study of Mus musculus with 12 samples.

Results

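The 8 genes described here encode RNA-binding proteins that set how the primary transcripts of striated muscle are spliced: Rbm20, Rbm24, Rbfox1, Rbfox2, Mbnl1, Mbnl2, Celf1 and Celf2. They were chosen by name, as the rows of the deposited count table that carry these symbols, and each of the 8 had 1 row among the 43686 rows of the table. All 8 had enough counts to be tested, among 17155 rows that passed the filter on low counts. RNA came from the ventricular wall of mice of the C57BL/6 strain, aged 2 months, by the sample labels, in 2 groups of 6 libraries. The study's own text names the substrain C57BL/6J and, in its main part, gives a younger age for the sequenced hearts. Its reporting summary names male mice of 2 ages for molecular work of this kind, the older of them close to the age in the labels.

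The KO group consisted of Sdhaf4fl/fl mice carrying Ckmm-Cre, called Sdhaf4-/- in the labels, and the WT group of Sdhaf4fl/fl littermates without the Cre, so that both groups carried the floxed Sdhaf4 alleles and Cre itself was present in the KO mice alone and cannot be told apart from the deletion. Sdhaf4 encodes an assembly factor of succinate dehydrogenase, the enzyme shared by the citric acid cycle and the respiratory chain. Ckmm-Cre is driven by the promoter of muscle creatine kinase and deletes in heart and skeletal muscle cells, which are not the only cells of the ventricular wall. Poly-A RNA was sequenced, and the study asked what loss of Sdhaf4 in the muscle did to the heart.

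Splicing regulators of this kind bind short motifs in introns and exons and promote or block the use of the neighbouring exon. MBNL and CELF proteins act against each other on many exons: CELF proteins favour fetal splice forms in the heart, while MBNL proteins favour the adult ones. RBFOX proteins recognise UGCAUG and act in muscle and brain. RBM20 keeps exons out of titin and of calcium-handling transcripts, and RBM24 promotes the inclusion of muscle exons. The values below are gene-level counts, which measure how much transcript was present and not which exons it held.

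The libraries held 23747014 to 27159228 counts in WT and 26542930 to 31393393 in KO. CPM below are the counts of a gene per 1000000 counts of its library, with the library size adjusted for composition by TMM. Sdhaf4 stood at 25.2 ± 5.80 CPM in WT and 2.40 ± 0.170 in KO (SD, n = 6 each), with no overlap of the groups. WT replicate 6 was the lowest WT library for Sdhaf4, at 14.3 CPM, while the other WT libraries lay between 24.1 and 30.3. On the first principal component of all rows tested, which held 59.9% of the variance, the WT libraries lay between -54.1 and -47.3, 5 KO libraries between 51.3 and 58.0, and KO replicate 3 at 31.8, apart from the other KO libraries on the side of WT. The results for Rbfox1, Rbm20 and Ttn are given with and without this library. Cardiomyocyte markers were abundant in every library, with 9 of 10 present as rows and a summed level of 51692 to 57156 CPM in WT and 44927 to 62135 in KO.

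Of the 8 regulators, 5 were higher in KO (Rbm24, Mbnl1, Mbnl2, Celf1 and Celf2), 1 was lower (Rbfox1) and 2 were not called (Rbm20 and Rbfox2), by edgeR's quasi-likelihood test at a Benjamini-Hochberg adjusted p of 0.05 over all rows tested. Across all rows tested, 25.6% were called higher and 25.5% lower. Rbfox1 was the 1 regulator that also passed the stricter threshold (log2 fold change beyond 1 in either direction at an adjusted p of 0.005), which 10.2% of all rows passed. The groups did not overlap for 4 of the 8, Rbfox1, Celf2, Rbm24 and Mbnl1, against 30.1% of all rows. The median log2 fold change of the 8 was 0.16, and that of all rows tested 0.002.

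**Figure D1:**
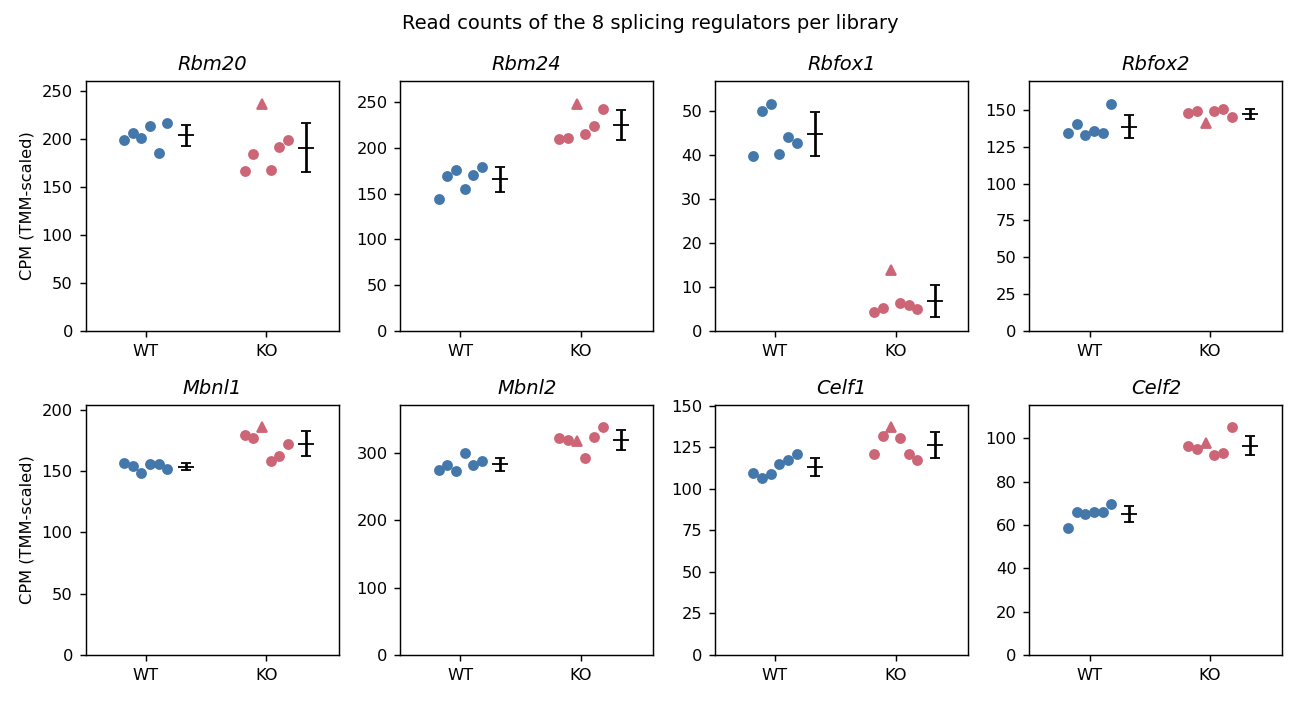
Each panel plots CPM (vertical axis, from 0) of 1 regulator in the 6 WT libraries (blue) and the 6 KO libraries (red), with the group mean ± SD in black; the triangle is KO replicate 3. Rbfox1 fell from 39.7 to 51.6 CPM in WT to 4.40 to 14.0 in KO, Rbm24 and Celf2 rose without overlap, and the triangle is the highest point of all 12 for Rbm20.

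Rbfox1 lies on chromosome 16 (MGP_C57BL6NJ_G0022906, plus strand, 3512693 to 4137041 on the C57BL/6NJ assembly that the identifiers name). It encodes an RBFOX protein best known from neurons, skeletal muscle and heart. Its sequence upstream of the start is shown because this gene moved far more than the other 7. The RefSeq table of promoters (GRCm38.p6, another assembly than that of the counts) lists 2 starts for it. On GRCm38 the gene spans 5885355 to 7411526, a longer stretch than that of the counted row. Which of the 2 starts the counted row includes is not known here. Below are the 250 bases before each, 5′ to 3′ on the strand of the gene. Capitals mark ACGTG in the first window and the E-box CANNTG in the second. ACGTG is a form of the core of the hypoxia response element, and no other form of it was searched.
Rbfox1 start 1, chr16:5884543-5884792, plus strand: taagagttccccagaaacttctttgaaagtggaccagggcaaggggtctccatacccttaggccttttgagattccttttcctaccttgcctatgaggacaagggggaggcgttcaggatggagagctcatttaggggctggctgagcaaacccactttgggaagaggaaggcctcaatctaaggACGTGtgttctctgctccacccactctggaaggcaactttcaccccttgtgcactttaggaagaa
Rbfox1 start 2, chr16:7069585-7069834, plus strand: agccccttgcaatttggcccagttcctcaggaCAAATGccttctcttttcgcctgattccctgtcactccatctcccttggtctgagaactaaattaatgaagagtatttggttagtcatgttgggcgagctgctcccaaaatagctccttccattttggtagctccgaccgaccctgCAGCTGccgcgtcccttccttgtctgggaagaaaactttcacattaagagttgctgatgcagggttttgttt
The first window held ACGTG at 1 place, a run found on either strand in 16.7% of the 32536 promoter windows of the same length in the table. The second held 2 E-boxes, which 66.2% of all windows held at least once. AGATAA, a binding motif of GATA factors, was found in 9.97% of all windows and in neither of these. These are matches of letters, and no binding was measured. The bases just after both starts were not found in a transcript of Rbfox1 in GENCODE, another set of gene models.

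Rbfox1 reached 39.7 CPM in the lowest, 43.4 in the median and 51.6 in the highest WT library. In KO the lowest library stood at 4.40, the median at 5.61 and the highest, replicate 3, at 14.0. Every KO library lay below every WT library, and the 5 KO libraries other than replicate 3 lay close together, between 4.40 and 6.39.
The counts behind these levels were 940 to 1384 in WT and 137 to 422 in KO. The exact 95% Poisson interval of the lowest KO library ran from 3.69 to 5.20 CPM and that of KO replicate 3 from 12.7 to 15.4, so the distance between them was larger than counting error. The group means were 44.7 ± 4.98 CPM in WT and 6.83 ± 3.56 in KO, a 6.53-fold fall. The log2 fold change was -2.71 (SE 0.25, adjusted p = 2.87e-06 by edgeR's quasi-likelihood test). Without KO replicate 3 it was -3.05 (adjusted p = 1.71e-12). In a bulk sample of this kind, fewer cells of a type and less RNA per cell cannot be told apart.

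Since Rbfox1 is also a neuronal gene, the neuronal markers were examined beside it. Their summed level was 8.15 to 10.5 CPM in WT and 4.54 to 8.64 in KO; of the 6 markers 3 could be tested, 1 being higher and 1 lower, Snap25 was at 0 in all 12 libraries, and Rbfox3, which marks mature neurons, had 44 counts over all 12. Stmn2, the most abundant of them, fell from 8.42 ± 0.903 to 5.07 ± 1.64 CPM (log2 fold change -0.73, SE 0.18, adjusted p = 0.00216, edgeR), a smaller log2 change than that of Rbfox1. The other marker called, Tubb3, was higher, at 0.287 ± 0.190 CPM in WT and 0.693 ± 0.285 in KO (log2 fold change 1.28, SE 0.44, adjusted p = 0.0225, edgeR), and did not pass without KO replicate 4 (adjusted p = 0.0624) or without WT replicate 3 (adjusted p = 0.053). Syn1 stood at 0.346 ± 0.213 CPM in WT and 0.527 ± 0.221 in KO (log2 fold change 0.61, SE 0.43, adjusted p = 0.262, edgeR). The part of neuronal RNA in the change of Rbfox1 was not tested.

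Rbfox2, the paralog that shares the RNA-binding domain and the motif of Rbfox1, lies on chromosome 15 (minus strand, 80088764 to 80337004). It ranged from 133 to 154 CPM in WT (median 135) and from 141 to 151 in KO (median 148). The groups overlapped because 1 WT library, replicate 6, stood at 154 while the other 5 lay between 133 and 140. The log2 fold change was 0.09 (SE 0.05, adjusted p = 0.125 by edgeR's quasi-likelihood test) and did not pass; without WT replicate 6 it was 0.12 and passed (adjusted p = 0.0255). The third paralog, Rbfox3, had too few counts to test.

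Per gene length, both RBFOX genes stood level in WT (20.4 ± 1.56 FPKM for Rbfox2 and 20.5 ± 2.34 for Rbfox1), on the lengths behind the FPKM values. On the longer lengths that the deposited table lists, the WT means were 19.7 for Rbfox2 and 10.9 for Rbfox1, which are not level. The FPKM ratio of Rbfox2 to Rbfox1 within a library was 1.01 ± 0.126 in WT (0.831 to 1.16) and 8.02 ± 2.58 in KO (3.25 to 10.8). The log2 difference of the ratio was 2.91 (SE 0.26), with a two-sided exact permutation p of 0.00216 over the 12 libraries, the smallest this design can give, and 0.00433 after adjustment over 4 ratios. Put as a share, Rbfox1 made up 50.0% ± 3.19 of the FPKM of both genes in WT and 12.4% ± 5.57 in KO, where it reached 23.5% in replicate 3 and was lowest at 8.48%.

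**Figure D2:**
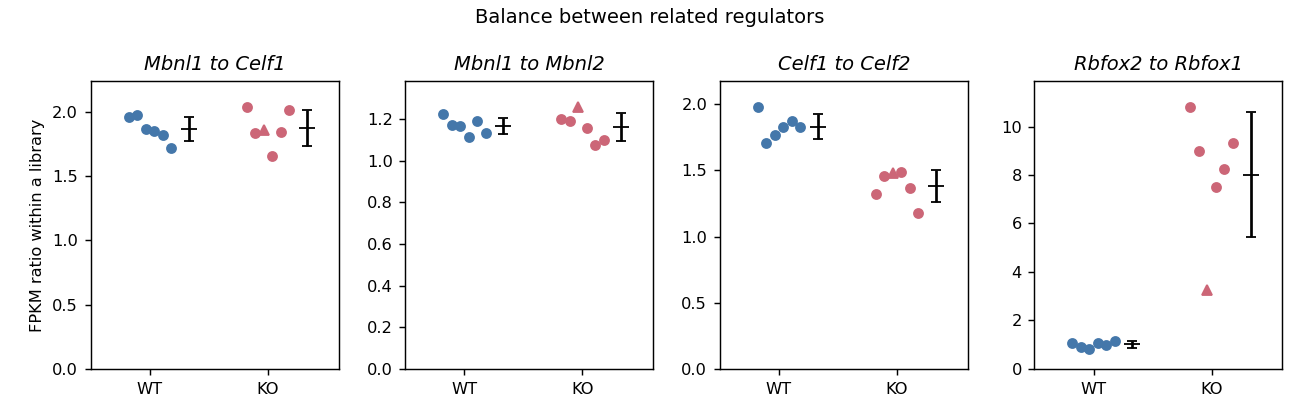
Each panel plots the ratio of the FPKM values of 2 regulators (vertical axis, from 0) in the 6 WT (blue) and 6 KO libraries (red), with the group mean ± SD in black and KO replicate 3 as a triangle. Rbfox2 to Rbfox1 rose from 1.01 to 8.02 with KO replicate 3 at 3.25, Celf1 to Celf2 fell from 1.83 to 1.38, and both Mbnl1 ratios overlapped between the groups.

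Among the CELF genes, Celf2 changed most. It encodes a CUG-binding protein that acts in splicing, translation and mRNA decay, and lies on chromosome 2 (minus strand, 3819230 to 4852467). RefSeq lists 5 starts for it; the window before the most 5′ of them is shown because Celf2 had the largest rise among the 8. Capitals mark CANNTG and AGATAA.
Celf2 start 1, chr2:7396199-7396448, minus strand: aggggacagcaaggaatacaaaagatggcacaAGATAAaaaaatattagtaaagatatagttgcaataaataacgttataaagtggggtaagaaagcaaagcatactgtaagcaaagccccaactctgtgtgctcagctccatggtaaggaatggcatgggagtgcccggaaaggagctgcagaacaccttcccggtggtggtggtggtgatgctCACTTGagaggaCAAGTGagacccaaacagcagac
This window held 2 E-boxes and 1 AGATAA, and no ACGTG.

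Celf2 ranged from 58.4 to 69.7 CPM in WT (median 66.0) and from 92.4 to 105 in KO (median 95.8). Every KO library stood above every WT library, and KO replicate 3, at 97.6, stood among the other KO libraries. The mean rose from 65.2 ± 3.71 to 96.6 ± 4.51 CPM, 1.48-fold (log2 fold change 0.57, SE 0.05, adjusted p = 6.93e-08, edgeR).

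Celf1, the broadly expressed member of the family that opposes MBNL1 on fetal exons, lies on the same chromosome (plus strand, 95491006 to 95573310). It ranged from 107 to 121 CPM in WT (median 112) and from 117 to 137 in KO (median 126), with overlapping groups. The rise was small, 1.12-fold (log2 fold change 0.16, SE 0.05, adjusted p = 0.0128, edgeR). Celf2 therefore gained on Celf1: the FPKM ratio of Celf1 to Celf2 was 1.83 ± 0.0929 in WT (1.71 to 1.98) and 1.38 ± 0.120 in KO (1.18 to 1.49), without overlap (log2 difference -0.41, SE 0.06, exact permutation p = 0.00216, adjusted p = 0.00433). Celf2 made up 35.4% ± 1.15 of the FPKM of both genes in WT and 42.0% ± 2.20 in KO.

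The other CELF genes were scarce in this tissue. Celf4 was tested at 0.419 ± 0.189 CPM in WT and 0.502 ± 0.327 in KO (log2 fold change 0.27, SE 0.45, adjusted p = 0.648, edgeR). Celf3, Celf5 and Celf6 were removed by the filter, with 47, 21 and 1 counts over the 12 libraries.

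Mbnl1 and Mbnl2, the muscleblind proteins that drive adult splice forms and are sequestered by expanded repeats in myotonic dystrophy, rose by similar amounts. Mbnl1 (chromosome 3, plus strand, 61629543 to 61818681) ranged from 149 to 157 CPM in WT (median 155) and from 158 to 186 in KO (median 175). Its KO libraries all stood above its WT libraries, the closest at 158 against 157. The log2 fold change was 0.17 (SE 0.05, adjusted p = 0.00663, edgeR), 1.12-fold.
Mbnl2 (chromosome 14, plus strand, 122545353 to 122711217) ranged from 274 to 299.8 CPM in WT (median 282) and from 293 to 338 in KO (median 321), with 1 KO library inside the WT range. Its log2 fold change was also 0.17 (SE 0.05, adjusted p = 0.00499, edgeR). The third muscleblind gene, Mbnl3, stood at 0.868 ± 0.321 CPM in WT and 1.32 ± 0.403 in KO (log2 fold change 0.60, SE 0.28, adjusted p = 0.0852, edgeR).

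The balance between MBNL and CELF was examined through Mbnl1 and Celf1 alone. Their FPKM ratio was 1.87 ± 0.0926 in WT and 1.87 ± 0.138 in KO, a log2 difference of 0.00 (SE 0.05, exact permutation p = 0.939). The ratio of Mbnl1 to Mbnl2 was 1.17 ± 0.0393 in WT and 1.16 ± 0.0672 in KO (log2 difference -0.01, SE 0.04, exact permutation p = 0.864, adjusted p = 0.939). The groups overlapped for both ratios. Both Mbnl1 ratios thus moved by less than their standard errors while the ratio within the CELF pair moved by 0.41 downwards on the log2 scale. Celf2 was not set against an MBNL gene in a ratio. Its log2 fold change was 0.57, against 0.17 for both Mbnl1 and Mbnl2, so the unchanged ratio does not extend to Celf2.

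Rbm24 and Rbm20 are the regulators most restricted to striated muscle. Rbm24 (chromosome 13, plus strand, 46567725 to 46581162) has 1 RefSeq start, and the window before it is shown as that of the second largest rise, with E-boxes in capitals.
Rbm24, chr13:46418050-46418299, plus strand: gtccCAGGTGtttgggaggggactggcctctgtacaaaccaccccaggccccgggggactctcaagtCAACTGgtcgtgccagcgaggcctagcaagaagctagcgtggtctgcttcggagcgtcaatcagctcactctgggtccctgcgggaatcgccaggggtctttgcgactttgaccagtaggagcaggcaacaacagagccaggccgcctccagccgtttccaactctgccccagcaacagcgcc
The window held 2 E-boxes and neither of the other motifs. The bases just after this start were not found in a GENCODE transcript of Rbm24. Of the 8 genes, 6 had windows in the RefSeq table, 12 windows in all. In Mbnl1, the first of 2 windows held the palindrome CACGTG, which counts as an E-box and, on both strands, as ACGTG. Mbnl2, Celf1, the second window of Mbnl1 and the window of Celf2 start 4 held none of the 3 motifs. The windows of Celf2 starts 2, 3 and 5 held E-boxes only.

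Rbm24 ranged from 144 to 179 CPM in WT (median 169.7) and from 210.0 to 248 in KO (median 219). Every KO library stood above every WT library, with replicate 3 the highest. The mean rose from 166 ± 13.5 to 225 ± 16.5 CPM, 1.36-fold (log2 fold change 0.44, SE 0.06, adjusted p = 1.56e-05, edgeR). Its closest paralog, Rbm38, which also acts on muscle transcripts, moved the other way, from 93.9 ± 9.44 to 72.5 ± 12.3 CPM (log2 fold change -0.37, SE 0.10, adjusted p = 0.00565, edgeR). The groups overlapped for Rbm38: KO replicate 3 stood at 93.7 CPM, inside the WT range of 80.6 to 103, while the other KO libraries lay between 61.9 and 80.7.

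Rbm20 (chromosome 19, plus strand, 55140903 to 55347587), whose mutations cause dilated cardiomyopathy, ranged from 185 to 217 CPM in WT (median 204) and from 166 to 236 in KO (median 188). The KO libraries surrounded the WT libraries: replicate 3 was the highest of all 12, at 236, and the other 5 lay between 166 and 199. The log2 fold change was -0.09 (SE 0.07, adjusted p = 0.324, edgeR), which did not pass. Without KO replicate 3 it was -0.17 and passed (adjusted p = 0.0202), so whether Rbm20 counts as lower in KO rests on that 1 library.

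**Figure D3:**
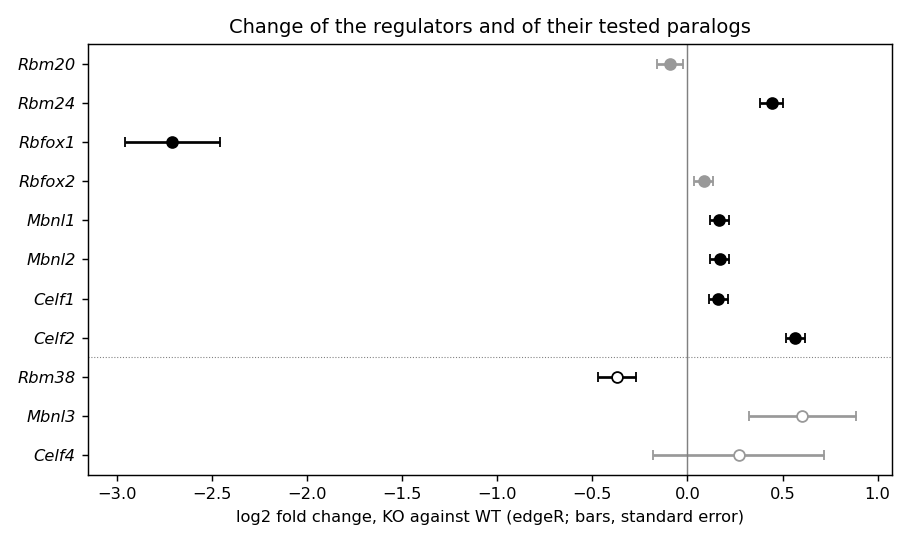
Points give the log2 fold change of KO against WT (horizontal axis) for the 8 regulators (filled) and, under the dotted line, their 3 tested paralogs (open), with bars of 1 standard error; black points passed an adjusted p of 0.05 and grey points did not. Rbfox1 stands alone at -2.71, and the 7 other regulators lie between -0.09 and 0.57.

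Between genes, levels were compared per length as FPKM. In WT the order of the means was Mbnl1 (73.0 ± 1.84 FPKM), Mbnl2 (62.6 ± 2.57), Rbm20 (57.1 ± 4.02), Rbm24 (51.5 ± 4.63), Celf1 (39.2 ± 2.16), Celf2 (21.4 ± 1.45), Rbfox1 (20.5 ± 2.34) and Rbfox2 (20.4 ± 1.56). Neighbours whose ranges overlapped in WT were Mbnl2 with Rbm20, Rbm20 with Rbm24, Celf2 with Rbfox1, and Rbfox1 with Rbfox2.
In KO, Rbm24 moved to 69.9 ± 3.50 FPKM, above Rbm20 (53.5 ± 5.90) and level with Mbnl2 (70.5 ± 2.68), the 1 pair of neighbours whose ranges overlapped there. Celf2 stood at 31.8 ± 1.03 and no longer overlapped its neighbours. Rbfox1 dropped to the last place, at 3.11 ± 1.53 FPKM, from the 73.5th percentile of all rows tested in WT to the 35.7th in KO.
This order depends on the length that the FPKM values rest on, which for most of the 8 was shorter than the length the table lists: 2103 against 5439 bases for Mbnl1. Per listed length the WT order was Mbnl2, Rbm24, Rbm20, Mbnl1, Rbfox2, Celf1, Rbfox1 and Celf2. The ratios above change in level by a fixed factor under another length, and their log2 differences between KO and WT do not. The shares of Rbfox1 and Celf2 given above would change both in level and in their difference between the groups.

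**Figure D4:**
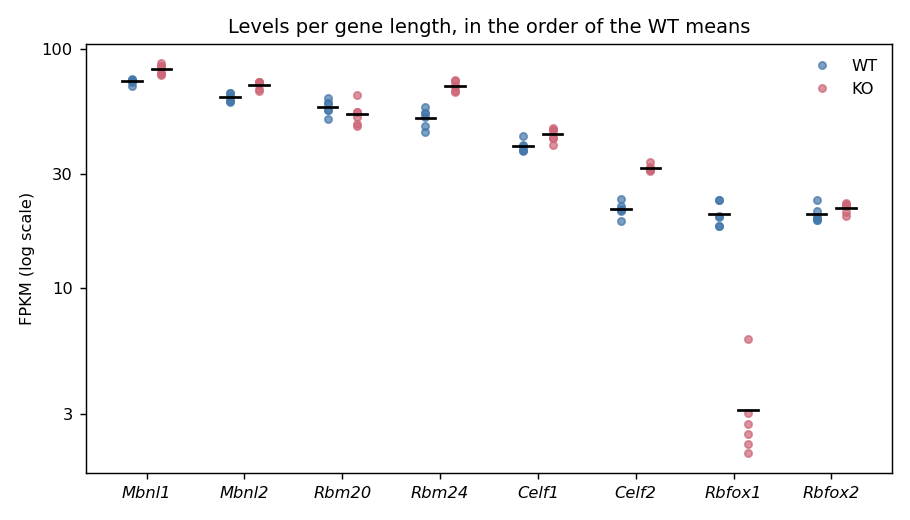
Points give FPKM (vertical axis, log scale) of each regulator in the 6 WT (blue) and 6 KO libraries (red), with a bar at the group mean, in the order of the WT means. Rbm24 rose from 51.5 to 69.9 FPKM, to the level of Mbnl2, and Rbfox1 dropped from 20.5 to 3.11.

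For the regulators, the annotated gene with the most similar profile over the 12 libraries was found among 10249 rows with a mean of at least 5 CPM, as the smallest root mean square difference of log2 CPM after centring. Rbfox1 was nearest to Maob, the mitochondrial monoamine oxidase, at a difference of 0.265. Maob fell from 57.8 to 9.51 CPM (log2 fold change -2.60, adjusted p = 7.93e-09, edgeR) and stood at 14.9 in KO replicate 3. Of the others, the differences were 0.075 for Rbm24 with Akap11, 0.058 for Celf2 with Ctnna1, 0.049 for Celf1 with Dync1li2, 0.043 for Mbnl1 with Fbxo22 and 0.027 for Rbfox2 with Chd4.

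Other regulators of splicing were read from the same fit. Of 13 genes for SR proteins, which bind exonic enhancers, 12 were tested, 7 were higher and 1 lower (median log2 fold change 0.20). Of 25 genes for hnRNP proteins, many of which repress exons, 22 were tested, 9 higher and 4 lower (median 0.05). Of 25 other regulators and kinases, 22 were tested, 10 higher and 4 lower (median 0.08). Together 26 of 56 tested were higher and 9 lower, where 25.6% of all rows tested were called higher and 25.5% lower. A fall of the size seen in Rbfox1 had no counterpart among them, and 1 gene moved by more than 1 on the log2 scale.
That gene was Khdrbs3, which encodes the STAR-family splicing factor SLM2, at 50.3 ± 4.38 CPM in WT and 24.0 ± 0.543 in KO (log2 fold change -1.07, SE 0.06, adjusted p = 4.29e-10, edgeR). Qk, the quaking protein of muscle and glia, rose by 0.54 on the log2 scale (adjusted p = 2.6e-07), which is close to the rise of Celf2, and Srpk2, a kinase of SR proteins, rose by 0.69 (adjusted p = 2.15e-07, edgeR) while its paralog Srpk1 fell by 0.33 (adjusted p = 5.93e-05).
Among SR proteins Tra2b (log2 fold change 0.42) and Srsf2 (0.35) were higher and Srsf7 (-0.32) was lower. Among hnRNP proteins Hnrnpll (0.38) and Hnrnpa3 (0.34) were higher, and Hnrnpa2b1 (-0.46) and Hnrnph3 (-0.35) were lower. Hnrnpa2b1 stood at 568 CPM in KO replicate 3 and between 390.4 and 486 in the other KO libraries.

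The transcripts on which the 8 regulators are known to act were also listed. Of 20 known RBM20 targets, 19 were tested, 11 were higher and 6 lower (median log2 fold change 0.30), against 25.6% and 25.5% of all rows. The number lower was 3 without KO replicate 4 and also 3 without KO replicate 5. Enah, an actin regulator (1.27, adjusted p = 2.26e-09), and Sh3kbp1, an adaptor protein (1.22, adjusted p = 3.63e-09), were higher. Kcnip2, a subunit of the transient outward potassium channel (-1.20, adjusted p = 1.7e-07), was lower by the same edgeR test. Ttn, the best-known RBM20 target, named here after its value was seen, had a log2 fold change of -0.14 (adjusted p = 0.0686, edgeR), with 3259 to 3789 CPM in WT and 2880 to 3346 in KO. Its adjusted p lay close to the threshold, between 0.023 and 0.107 under the other normalizations, filters and tests, and was 0.0263 without KO replicate 3, 0.0489 without WT replicate 3 and 0.0457 without WT replicate 5.
Of 23 targets of MBNL, CELF or RBFOX proteins, 22 were tested, 6 higher and 8 lower (median -0.03), against 25.6% and 25.5% of all rows. Dmd, dystrophin, rose by 0.59 on the log2 scale (adjusted p = 1.58e-07), and Insr, the insulin receptor, fell by 0.35 (adjusted p = 0.000169, edgeR). Clcn1, the muscle chloride channel, fell furthest, from 5.89 ± 1.06 to 0.273 ± 0.218 CPM (log2 fold change -4.41, SE 0.31, adjusted p = 7.85e-09, edgeR), with as few as 3 counts in a KO library and 0.695 CPM in KO replicate 3. The exon usage of these targets was not analysed here.

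**Figure D5:**
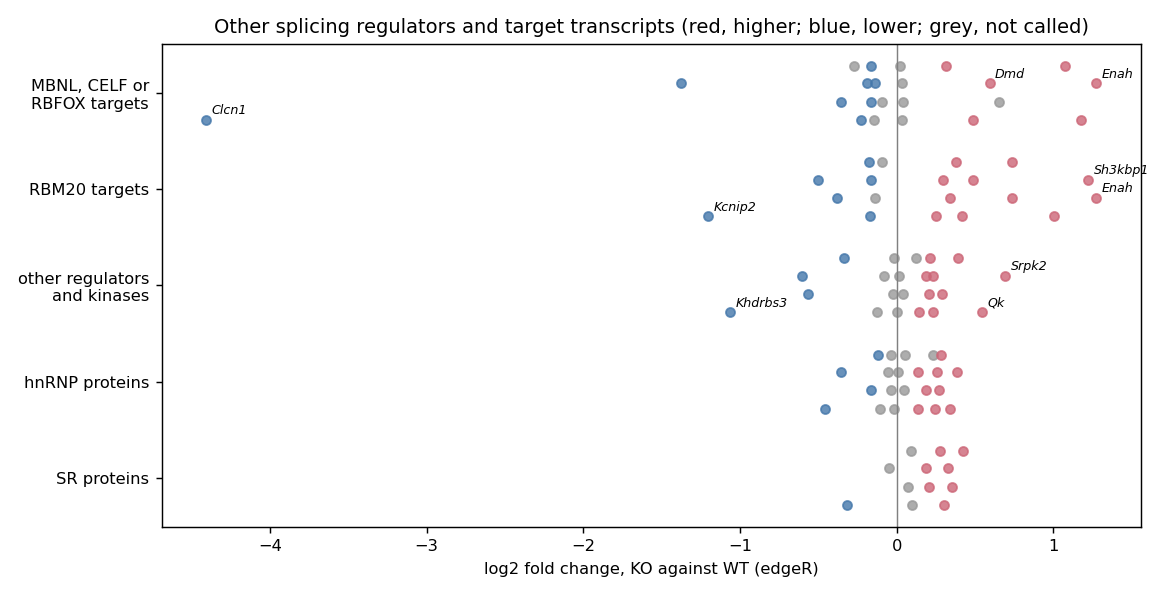
Points give the log2 fold change of KO against WT (horizontal axis) of every tested gene in 3 lists of other splicing regulators and 2 lists of target transcripts; red points passed an adjusted p of 0.05 as higher, blue as lower, and grey did not pass, and the vertical offset within a list has no meaning. Regulators lie between -1.07 (Khdrbs3) and 0.69 (Srpk2), and targets between -4.41 (Clcn1) and 1.27 (Enah).

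Markers of the cell types of the ventricular wall were read from the same fit, in which 25.6% of all rows were called higher and 25.5% lower. All 8 fibroblast markers were higher in KO (median log2 fold change 1.18), and their summed level was 1420 to 1670 CPM in WT and 2584 to 4867 in KO. Of 9 cardiomyocyte markers tested, 2 were higher and 4 lower (median -0.20). The endothelial list (3 of 6 higher, 1 lower, summed level 1304 to 1447 CPM in WT and 1374 to 1650 in KO), the smooth muscle and pericyte list (2 higher and 2 lower of 6, 1242 to 1466 and 1310 to 1751) and the macrophage list (1 higher and 2 lower of 7, 252 to 350.1 and 249.7 to 361) had summed levels that overlapped between the groups. Lymphocyte markers summed to at most 3.86 CPM, with 1 of 3 tested higher. Rbfox2, Mbnl1, Mbnl2, Celf1 and Celf2 are also made outside cardiomyocytes, and the part of a changed cell mix in their values was not tested.

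No other row overlapped Rbm24, Rbfox1 or Celf1 in the table. Unnamed rows overlapped the other 5, with at most 0.726% of the counts of the regulator. That largest one lay opposite Mbnl2 (MGP_C57BL6NJ_G0005703, 721 counts over the 12 libraries) and had a log2 fold change of 0.25 (adjusted p = 0.321, edgeR).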

How the data were processed

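The authors purified poly-A RNA, mapped the reads (HISAT2 2.0.5 and mm10 in the submitters' processing notes) and deposited 1 table with the raw read counts of HTSeq and the FPKM of each library. Gene identifiers and coordinates are of the C57BL/6NJ assembly, and whether the counting used strand is not given in the sources used here. The deposited group means of scaled counts (a signal), log2 fold changes and p-values are the authors' own comparison and were not used.

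The count model was fitted with edgeR 4.0.16 (R 4.3.3), after filterByExpr (17155 of 43686 rows kept), TMM normalization and the robust quasi-likelihood test of 6 KO against 6 WT libraries without covariates, adjusted by Benjamini-Hochberg over all rows kept. CPM are TMM-scaled. FPKM served for levels between genes and for 4 ratios of regulators, on the log2 scale, tested by two-sided exact permutation over the 12 libraries. Errors are SD unless given as SE. Replicates are mice; no pair of libraries within a group was a duplicate (chi-square per degree of freedom of at least 7.47). Intervals cover counting error only. The regulators and gene lists were chosen with earlier results of these data known, and the lists were written from general knowledge. The other genes named are, per list of regulators or targets, the 2 with the smallest p in each direction, the paralogs, the targeted gene, overlapping rows and the nearest profile of each regulator; 3 genes that this rule names are not reported here. Ttn, Ryr2 and the neuronal markers were named after their values were seen. Alternatives were other normalizations, filters and tests (DESeq2 1.42.0, limma-voom with limma 3.58.1), a block on the replicate number, and each library left out in turn. Scripts were tested on simulated data.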

Additional observations from a re-analysis of the deposited data

Results flagged for a closer look

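Of 90 groups of 6 libraries examined (the regulators, the other tested genes picked by name or by the rule, and the 4 ratios, in WT and in KO), 12 held a library far from the other 5 of its group, where a rate of 1 in 20 gives about 4.5. That rate holds for genes picked without regard to their values. The 12 include genes picked by profile and Ryr2, named after its value was seen, so no excess can be read from them. Genes removed by the filter on low counts were not examined.

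In KO replicate 3, Rbfox1 stood at 14.0 CPM against 4.40 to 6.39 in the other KO libraries, Clcn1 at 0.695 CPM against 0.0978 to 0.288, and Ryr2 at 1691 CPM against 863 to 1039. In WT replicate 6, Rbfox2 stood at 154 CPM against 133 to 140 in the other WT libraries, and Khdrbs3 at 58.9 CPM against 46.9 to 50.7. In KO replicate 1, Sdhaf4 stood at 2.73 CPM against 2.25 to 2.41.

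The other 6 were in genes picked because their profile resembled that of a regulator, so they are not independent of it. Maob in KO replicate 3 stood at 14.9 CPM against 6.87 to 9.78, and Chd4 in the same library at 255.05 CPM against 266 to 270.3. In WT replicate 6, Chd4 stood at 275 CPM against 234 to 249, and Dync1li2 at 162 CPM against 140.2 to 145. In KO replicate 6, Akap11 stood at 108 CPM against 95.2 to 98.7, and Ctnna1 at 839 CPM against 744 to 776.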

How the results depend on the processing

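The counts of the 8 regulators called higher (5) and lower (1) and past the stricter threshold (1) held under all 8 alternatives of normalization, filter, test and block. Leaving out 1 library gave 5 to 6 higher and 1 to 2 lower; without KO replicate 3, Rbm20 became the second called lower, and without WT replicate 6, Rbfox2 became the sixth called higher. The log2 fold change of Rbfox1 ran from -3.05 to -2.61 over these fits.

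The replicate numbers did not pair the libraries: same-numbered libraries correlated at -0.162 to 0.0243, and 1 of 12 correlated best with its own number. With the replicate block, all calls of the 8 were kept, the ratios Celf1 to Celf2 (-0.41) and Rbfox2 to Rbfox1 (2.91) had an adjusted p of 0.0625 in a sign-flip test whose smallest p is 0.03125, 3 RBM20 targets and 5 targets of MBNL, CELF or RBFOX were lower, and 2 macrophage markers were higher. Without a filter 1 paralog and 2 neuronal markers were higher and 1 smooth muscle marker was lower, with a filter of 1 CPM 0 lymphocyte and 0 neuronal markers were higher (fewer genes were tested), and with library size only 1 macrophage marker was lower.

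Over the fits without 1 library, 0 to 1 paralogs were higher (Mbnl3 passed without WT replicate 3 or KO replicate 6), 3 to 7 RBM20 targets were lower (3 without KO replicate 4 or 5), 1 to 2 macrophage and 1 to 3 smooth muscle markers were lower, and 0 to 2 lymphocyte and 0 to 1 neuronal markers were higher. The log2 difference of Mbnl1 to Celf1 ran from -0.02 to 0.04 and that of Mbnl1 to Mbnl2 from -0.03 to 0.02; neither passed, and each took both signs, with reversed values of -0.00 and -0.02 for the first and 0.01 and 0.02 for the second. The cause of these shifts was not tested. Values under 1 CPM rest on few counts, and the median log2 fold change of all rows lay between -0.008 and 0.004 under the scalings tried.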

Other observations

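KO replicate 3 did not stand on the side of WT for every regulator. Between the mean of the other KO libraries (0) and the WT mean (1), it lay at 0.218 in CPM for Rbfox1. On the first component of all rows it lay at 0.212, but that component rests on log2 CPM, so the values are on unlike scales. For Rbm24, Mbnl1 and Celf1 it lay beyond the other KO mean on the far side from WT, at 248, 186 and 137 CPM, the highest of the 12 libraries in each. For Rbm20 it had the highest value of the 12 as well, but on the side of WT and past it, at 2.51 on this scale. There the mean of the other KO libraries (182 CPM) lay below the WT mean (204). For Rbfox2 it lay at 0.745, for Mbnl2 at 0.0533 and for Celf2 at -0.0386. Ryr2, the cardiac ryanodine receptor and an RBM20 target (named after its value was seen), stood at 1691 CPM in KO replicate 3 against 863 to 1039 in the other KO libraries and 1329 to 1639 in WT. With all libraries its log2 fold change was -0.50 (SE 0.14, adjusted p = 0.00934, edgeR). It ran from -0.69 to -0.45 when each library was left out in turn.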
